A study of Bos taurus with 12 samples.

Results

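The genes described here are the solute carriers other than the glucose transporters, in mammary epithelium and in the intralobular stroma around it. They were chosen by name: every probe set with a single gene symbol that begins with SLC and a number, leaving out the SLC2A genes and SLC5A1. This gave 240 of the 24016 probe sets on the bovine array that are not controls, which stand for 171 of 9155 named genes. Of these, 94 probe sets of 80 genes were bright enough to be tested (a mean of 3.57 or more over the 12 arrays), and each gene was read by its brightest tested probe set unless another is named. The name takes in 2 tested genes, SLC4A1AP and SLC7A6OS, that are called after a carrier and are not carriers themselves.

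The tissue came from 6 dry Holstein cows at 3 weeks before calving, with no genetic modification. Explants were held for 2 h in medium that contained insulin, hydrocortisone and 50 µM BrdU, a label of DNA synthesis, and both compartments of all cows shared this culture. Epithelium and stroma were then cut by laser from frozen sections of the same cow, so that there were 12 arrays, 6 per tissue, and each cow gave a pair. Arrays with the same replicate number were taken as the pair of a cow. The lactation number was 3 in cow 1, 2 in cow 2 and 1 in cows 3 to 6 per the labels, whereas the study's methods describe every animal as multiparous, so that the meaning of these numbers is unsettled. The stromal captures were a mixed population from which vessels and obvious immune cells were avoided. All values are log2 intensities, and every difference is stroma minus epithelium, so that a negative value means more signal in epithelium. In captured tissue, fewer cells of a type and less RNA per cell cannot be told apart.

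Solute carriers are membrane proteins that move a substrate down its gradient or drive it uphill by coupling it to sodium, protons or a second solute. The mammary epithelium draws amino acids, carnitine, nucleosides and trace metals from blood, and passes many of them into milk. The SLC25 family serves the inner mitochondrial membrane, and the SLC35 family brings nucleotide sugars into the Golgi and endoplasmic reticulum for glycosylation.

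The captures were first checked against markers. Among 13 tested luminal markers, such as keratins and claudins, 12 passed towards epithelium and MUC1 did not. Their mean was 7.32 to 8.46 on the epithelial arrays and 4.47 to 6.00 on the stromal arrays. All 12 tested fibroblast genes were higher in stroma, at 8.56 to 9.20 against 3.16 to 5.27. Of 6 tested endothelial genes, 5 were higher in stroma, at 6.5 to 7.54 against 2.83 to 3.47, although vessels were avoided. None of 6 macrophage genes passed (5.10 to 6.06 in stroma, 4.01 to 5.12 in epithelium), nor did any of 5 T and NK cell genes (4.62 to 6.55 in stroma, 4.66 to 5.90 in epithelium). Unadjusted, 3 and 0 of them had a p under 0.05 towards stroma, beside 8.39% of all tested genes. Of 8 myoepithelial and smooth muscle genes 2 were higher in stroma, and of 3 nerve genes 2 were higher in epithelium. Of 2 tested adipocyte genes, FABP4 was higher in stroma (9.06 against 5.04, 16.2-fold, adjusted p = 0.00204) and LPL did not pass (5.30 against 4.27, adjusted p = 0.440). The median of each array was 2.95 to 3.08, and a tissue mean under 2.95 is called dim here and allows no exact fold. Control RNA added before amplification was brightest in the stroma of cows 4, 5 and 6, with means of 8.27, 9.99 and 9.45, against 2.91 to 6.05 in epithelium. The part of these markers and controls in the differences below was not tested, and counts are also given without cows 5 and 6.

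Among the 80 tested carriers, 9 were expressed at a greater level in epithelium and 1 in stroma (adjusted p under 0.05, limma with cow as a block). These were SLC28A3, SLC22A5, SLC39A9, SLC1A1, SLC31A2, SLC16A1, SLC25A29, SLC31A1 and SLC22A23 in epithelium, and SLC12A4 in stroma. As a share, 12.5% of the carriers passed, against 9.1% of all 5222 tested genes. In epithelium 11.25% passed against 4.62% of genes, and in stroma 1.25% against 4.48%. The median difference of the carriers was -0.42, beside -0.20 over all tested genes, and 49 of 80 lay below 0, where 60% of genes did. The direction of the median holds for the bright carriers only, since over all 240 carrier probe sets, with no filter, it was 0.073. When each array was centred the medians were -0.25 over the carriers and -0.0096 over all tested probe sets. Of 33 carriers that differed by more than 1 on the log2 scale, 10 passed. Without cows 5 and 6, 6 carriers passed towards epithelium and 0 towards stroma. When either cow 1 or cow 6 was left out, 5 passed towards epithelium. The share of all tested genes that passed in these refits was not counted, so carriers cannot be set against other genes there. The stromal call was lost without any of cows 1, 2, 4, 5 and 6. By probe set, 11 of 94 were higher in epithelium and 2 in stroma, with 13.8% passing in either direction beside 9.29% of all tested probe sets (4.76% and 4.54% by direction).

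**Figure D1:**
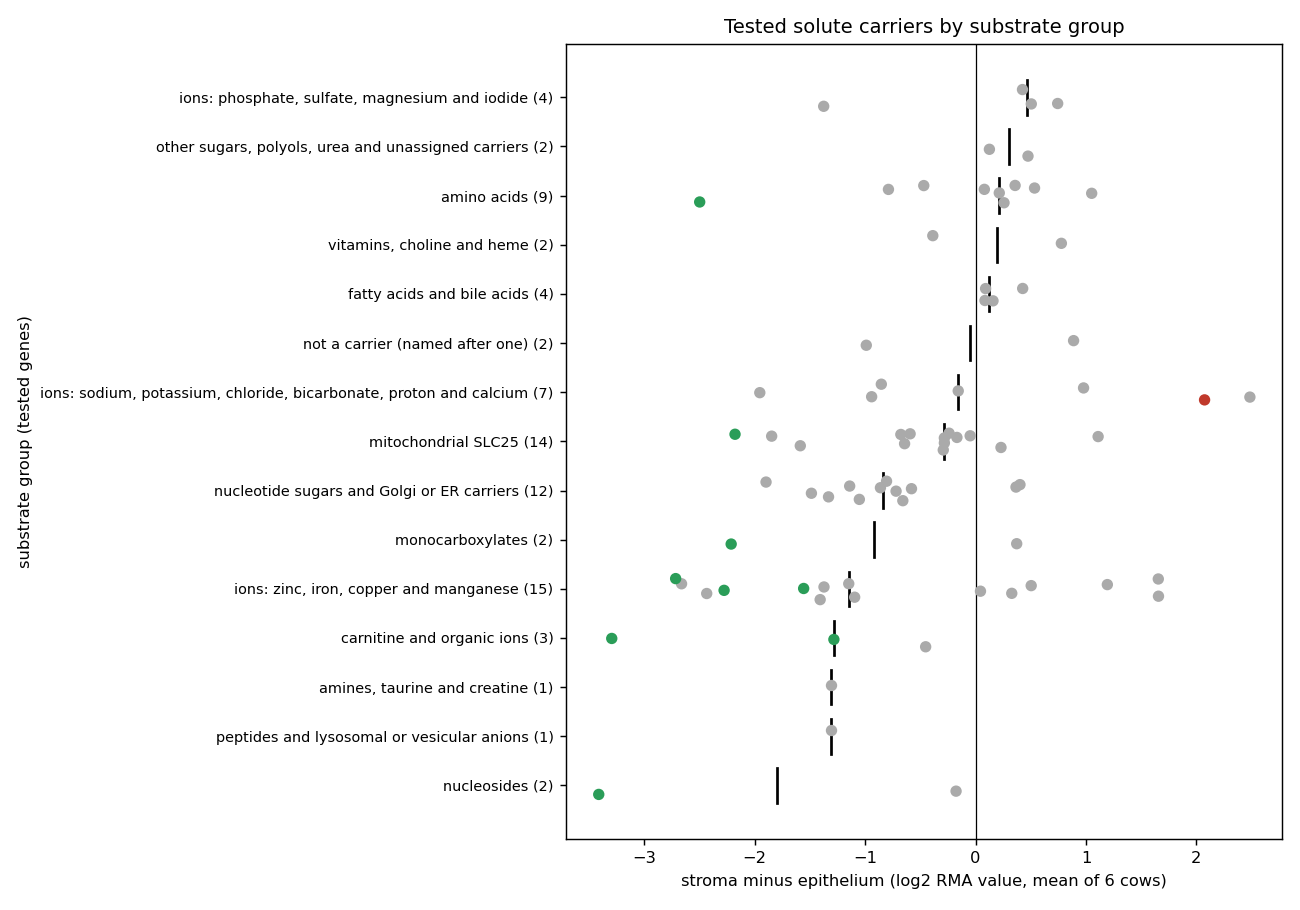
Difference between stroma and epithelium on the log2 scale (x axis) for the 80 tested carriers, arranged by substrate (y axis). Each point is the mean of a gene over 6 cows, green if higher in epithelium, red if higher in stroma and grey if not passed, and black bars are group medians. Green points appear among the amino acid, nucleoside, carnitine, monocarboxylate, metal and SLC25 carriers, and the sole red point is SLC12A4.

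The largest difference was in the nucleoside carriers. SLC28A3 encodes the concentrative nucleoside transporter CNT3, which couples uptake of purine and pyrimidine nucleosides to sodium. Its signal was 9.75 at the lowest, 10.09 at the median and 10.34 at the highest in epithelium, and 3.89, 7.53 and 8.76 in stroma. All 6 epithelial captures were above all 6 stromal captures, and the epithelial values lay close together while the stromal values were spread. The difference was -3.41 (SE 0.63, n = 6 pairs), 10.7-fold, with an adjusted p of 0.0109. The other tested probe sets of the gene gave -3.39 (adjusted p = 0.0397) and -3.02 (adjusted p = 0.0644). The call of the first of these was lost in 9 of 15 settings, namely without cow 1, 2, 3, 4 or 6, without the cow block, with no filter, with a filter on 8 bright arrays and after centring (adjusted p up to 0.106). The equilibrative transporter ENT1 (SLC29A1), which lets nucleosides pass in either direction, gave -0.18 with a 95% interval of -0.96 to 0.61 (adjusted p = 0.803). Its arrays ran from 9.94 to 10.90 in epithelium and from 9.75 to 11.38 in stroma, and 3 cows were higher in each tissue. The remaining 2 of the 4 nucleoside carriers on the array were not among the tested genes.

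**Figure D2:**
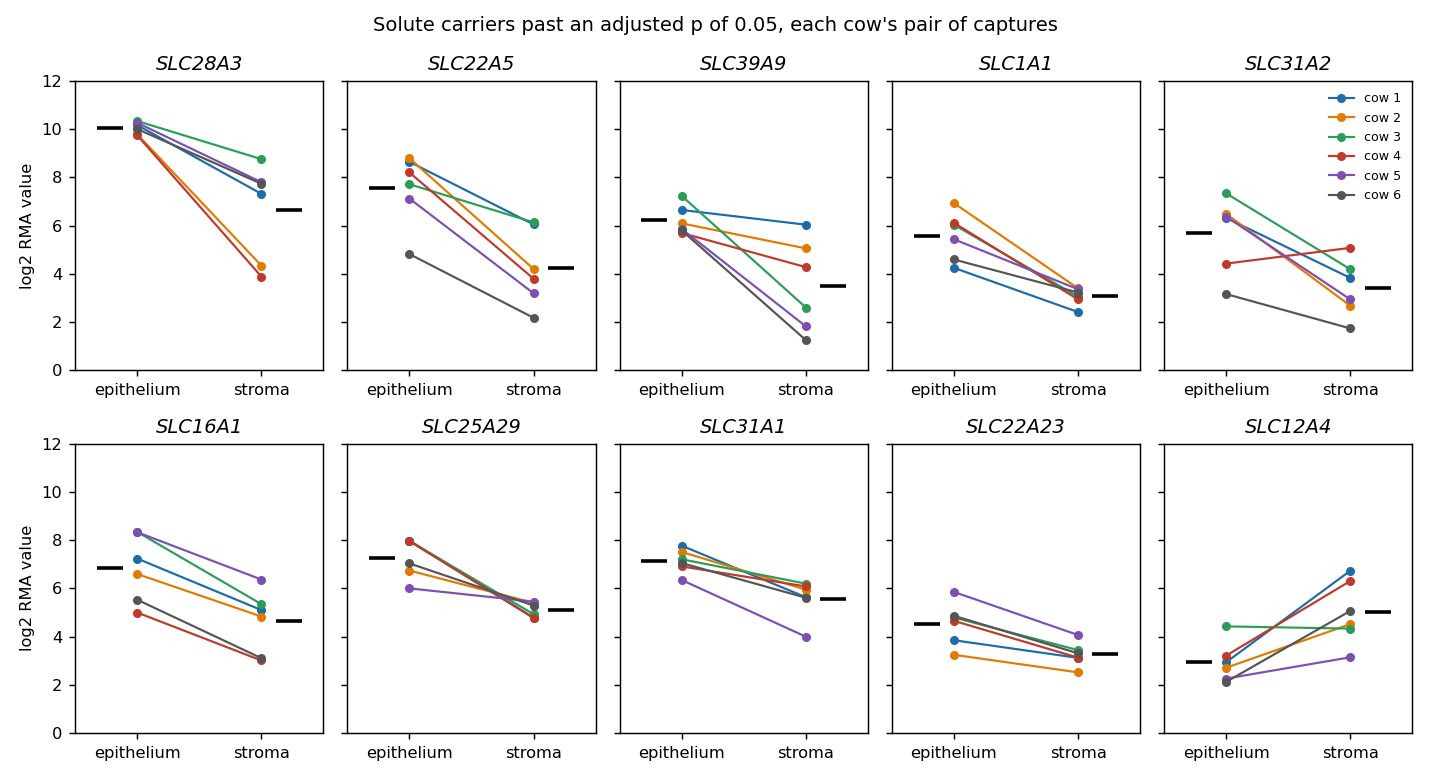
Log2 intensity (y axis) of the 10 carriers that passed, 1 panel per gene, in epithelium and stroma (x axis). Each line joins both captures of a cow and black bars are tissue means over 6 cows. SLC28A3, SLC1A1, SLC25A29 and SLC31A1 show no overlap between tissues, and 1 cow runs against the others for SLC31A2 and SLC12A4.

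Of 3 tested carriers of carnitine and organic ions, 2 were higher in epithelium. SLC22A5 encodes OCTN2, the sodium-coupled carrier that brings carnitine into cells, where it is needed to move long-chain fatty acids into mitochondria. Its lowest, median and highest values were 4.82, 7.96 and 8.80 in epithelium, against 2.17, 4.0 and 6.14 in stroma. The tissues overlapped, but epithelium was higher in each of the 6 cows. The difference was -3.30 (SE 0.48), 9.82-fold, with an adjusted p of 0.00366. Its dimmer, untested probe set gave -0.14 (adjusted p = 0.919 in a fit of all probe sets). SLC22A23, an orphan member of the same family, had values of 3.24, 4.72 and 5.85 in epithelium, against 2.51, 3.21 and 4.06 in stroma. Epithelium was again higher in all 6 cows with some overlap, by a difference of -1.28 (SE 0.34), 2.43-fold, with an adjusted p of 0.0479. This call was lost when any cow was left out (adjusted p up to 0.121), without cows 5 and 6 (0.194), without the cow block (0.0897) or with a random one (0.0631), with a prior trend (0.0509), after quantile scaling (0.0548) and after centring (0.079). In all it was lost in 12 of 15 settings. The mitochondrial carnitine-acylcarnitine carrier SLC25A20, the next step of the same route, is given with its family.

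A single amino acid carrier passed among the 9 tested of 23 on the array. SLC1A1 encodes EAAC1, which takes up glutamate and aspartate with sodium. Its values, here and below given as the lowest, median and highest of 6 arrays, were 4.25, 5.74 and 6.93 in epithelium, against 2.41, 3.14 and 3.39 in stroma. Every epithelial array was above every stromal array. The difference was -2.50 (SE 0.40), 5.65-fold, with an adjusted p of 0.00594. The other 8 ranged from -0.79 to 1.05 with none passing. Of the 9, 3 were below 0, where 60% of all tested genes were, and the group median was 0.21.

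The tested carriers of large neutral and cationic amino acids gave no call. LAT1 (SLC7A5) exchanges leucine and other large neutral amino acids as a heterodimer with CD98 (SLC3A2). SLC7A5 differed by 0.08 (interval -1.08 to 1.24, adjusted p = 0.944) and SLC3A2 by 0.21 (-0.88 to 1.31, adjusted p = 0.830). The glutamine carrier ASCT2 (SLC1A5) was at 8.29 to 9.63 in epithelium and 7.88 to 10.29 in stroma, with a difference of 0.53 (-0.30 to 1.36, adjusted p = 0.419). SNAT2 (SLC38A2), a sodium-coupled carrier of small neutral amino acids, differed by 0.26 (-0.52 to 1.03, adjusted p = 0.694) while its second tested probe set gave -0.71 (adjusted p = 0.561). CAT1 (SLC7A1), the carrier of arginine and lysine, gave -0.79 (-1.85 to 0.27, adjusted p = 0.349). Each of these 5 intervals spans 0. The highest value was in SLC43A2 (LAT4), named after its values were seen, at 1.05 (-0.25 to 2.36, adjusted p = 0.309).

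SLC6A14 (ATB0,+), which accumulates neutral and cationic amino acids, was outside the tested probe sets because its mean was low. Its values were 3.00, 5.13 and 6.04 in epithelium, against 1.61, 1.85 and 3.57 in stroma, with epithelium higher in all 6 cows. In a fit of all probe sets the difference was -2.69 (SE 0.37, adjusted p = 0.0111), and its fold of 6.44 is not exact because stroma was dim. It was the only one of the 146 untested carrier probe sets to pass in that fit. The share of all untested probe sets that passed there was not counted, so this count cannot be set against other genes.

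**Figure D3:**
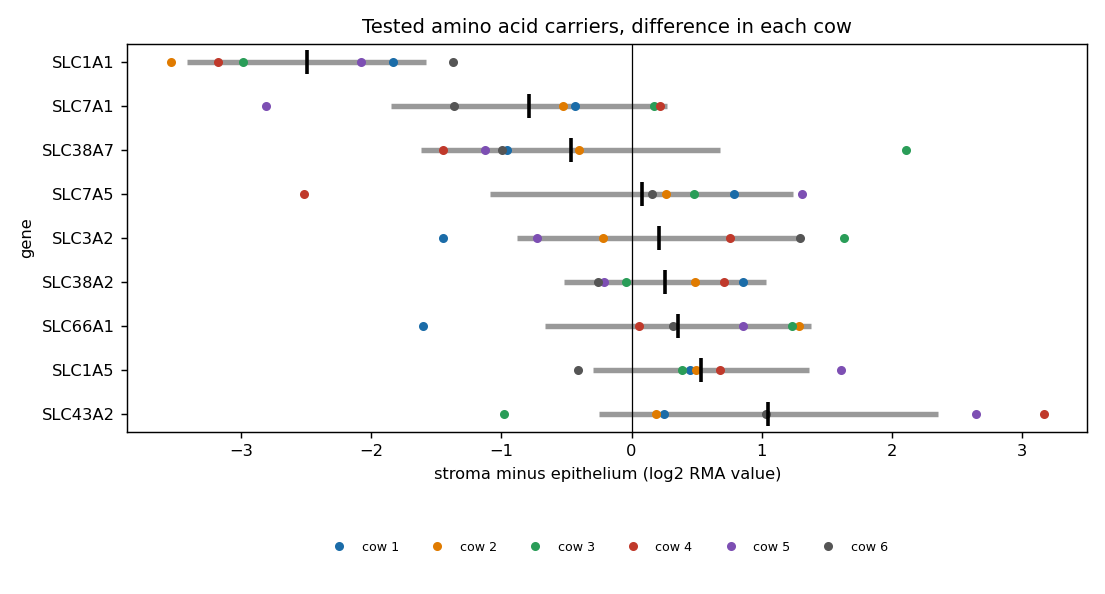
Stroma minus epithelium on the log2 scale (x axis) for the 9 tested amino acid carriers (y axis). Coloured points are single cows, black ticks the means and grey bars 95% intervals. SLC1A1 lies below 0 in all 6 cows, whereas the interval of the other tested carriers includes 0.

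The carriers of zinc, iron, copper and manganese held 3 of the 9 epithelial calls, among 15 tested of 21 on the array. Their differences had a median of -1.15, and 9 of the 15 were below 0, where 60% of all tested genes were. Unadjusted, 9 had a p under 0.05 towards epithelium and 1 towards stroma (14.6% and 8.39% of all tested genes). None was called in stroma. SLC39A9 (ZIP9), a zinc importer of the Golgi and plasma membrane, ran through 5.70, 5.98 and 7.23 across the epithelial arrays and 1.25, 3.44 and 6.04 across the stromal arrays. It was higher in epithelium in all 6 cows, and only the stromal value of cow 1 reached into the epithelial range. The difference was -2.72 (SE 0.65), 6.57-fold, with an adjusted p of 0.0347. Left out in turn, cows 3, 4, 5 and 6 each ended the call (0.0854, 0.0559, 0.086 and 0.0898), as did leaving out cows 5 and 6 together (0.194) and testing with no filter (0.0865). Its dimmer probe set gave -0.38 (adjusted p = 0.666).

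Both copper carriers were higher in epithelium. SLC31A1 (CTR1), the main high-affinity copper importer, had values of 6.34, 7.13 and 7.77 in epithelium, against 3.99, 5.79 and 6.19 in stroma. The tissues did not overlap, and the lowest stromal value was that of cow 5. The difference was -1.56 (SE 0.36), 2.94-fold, with an adjusted p of 0.0282, and it was not called without cow 1 (0.0949), 2 (0.0763), 5 (0.0616) or 6 (0.0638), or without cows 5 and 6 (0.127). SLC31A2 (CTR2), which acts on copper in endosomes and lysosomes, had values of 3.16, 6.35 and 7.34 in epithelium, against 1.73, 3.38 and 5.08 in stroma. Here 5 cows were higher in epithelium and cow 4 was the other way, by 0.65. The difference was -2.28 (SE 0.60), 4.85-fold, with an adjusted p of 0.0473. That call was lost without cow 1 (0.121), 2 (0.123), 3 (0.111), 5 (0.109) or 6 (0.0745), without cows 5 and 6 (0.164) and without the cow block (0.0674). It was also lost with no filter (0.102), with a filter on 8 bright arrays (0.0578), after quantile scaling (0.0532) and after centring (0.0662), in 11 of 15 settings in all.

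DMT1 (SLC11A2), a proton-coupled importer of iron and other divalent metals, did not pass, with a difference of -2.66 (-4.42 to -0.91, adjusted p = 0.0674). Its values were 4.78, 5.80 and 6.80 in epithelium, against 1.75, 2.29 and 6.99 in stroma. The highest stromal value, of cow 3, was above every epithelial value, and without cow 3 the adjusted p was 0.00262. It also passed without the cow block (0.045) and with cow as a random block, in 3 of 15 settings in all. SLC39A8 (ZIP8), an importer of zinc and manganese, gave -1.41 (-2.67 to -0.15, adjusted p = 0.165).

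Some other metal carriers were chosen after their values were seen. SLC39A14 (ZIP14), a relative of ZIP8, gave -2.44 (adjusted p = 0.0892) with stroma dim. SLC39A13 (ZIP13), a zinc carrier of the secretory pathway, ran the other way. It had 2.24, 3.75 and 4.41 in epithelium, against 4.54, 5.01 and 6.43 in stroma. By brightest probe sets it was the single tested carrier with all stromal arrays above all epithelial arrays (3.41% of genes). Its difference of 1.66 did not pass (adjusted p = 0.0774). The macrophage and endosomal metal carrier SLC11A1 differed by 1.66 with an interval of -1.17 to 4.49 (adjusted p = 0.464), and its difference ran from -4.93 to 6.00 between cows.

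**Figure D4:**
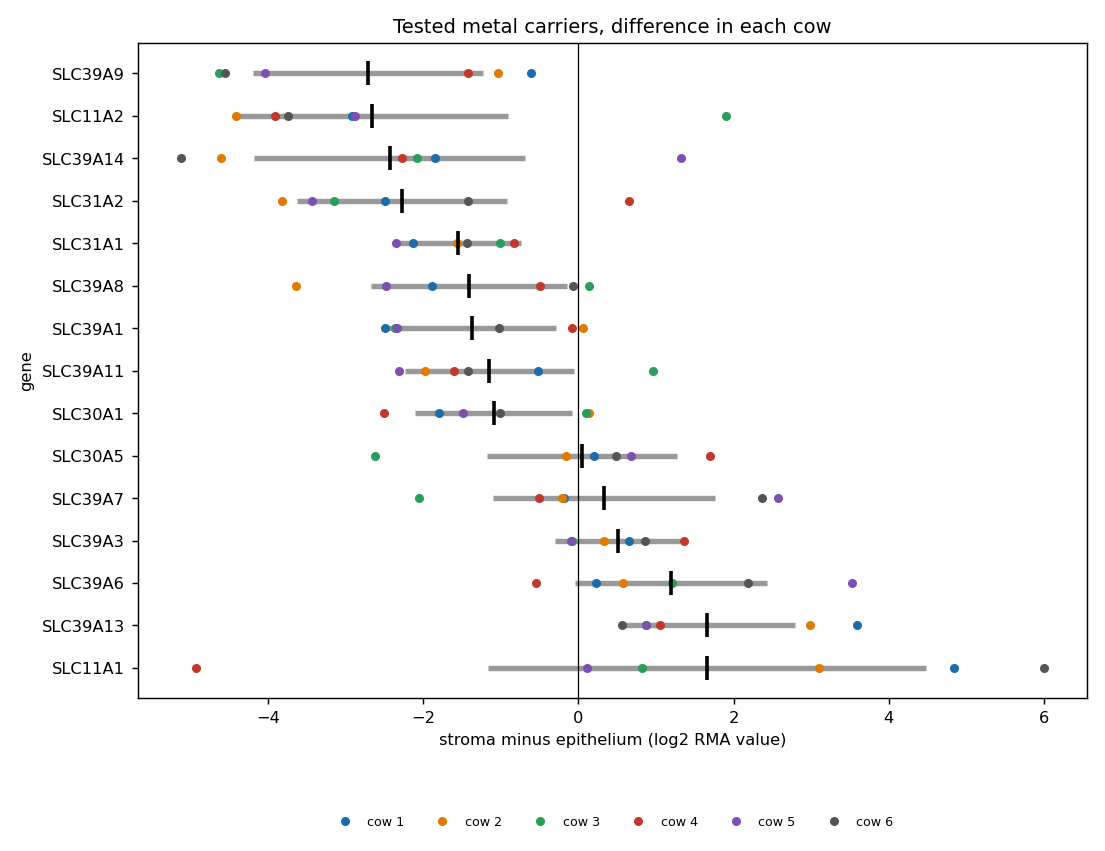
Stroma minus epithelium on the log2 scale (x axis) for the 15 tested zinc, iron, copper and manganese carriers (y axis), with 1 coloured point per cow, a black tick for the mean and a grey bar for the 95% interval. SLC31A1 and SLC39A9 lie below 0 in all 6 cows and SLC39A13 above 0 in all 6, and SLC11A1 spans -4.93 to 6.00.

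Carriers of sodium, potassium, chloride, bicarbonate, protons and calcium gave the only stromal call, among 7 tested of 17. SLC12A4 encodes KCC1, which lets potassium and chloride leave the cell together and regulates cell volume. Its values were 2.12, 2.82 and 4.42 in epithelium, against 3.14, 4.79 and 6.73 in stroma. Stroma was higher in 5 cows, and cow 3 had about the same value in both (-0.09). The difference was 2.07 (SE 0.55) with an adjusted p of 0.0491, and the fold of 4.21 is not exact since the epithelial mean of 2.94 was dim. The call was lost without cow 1 (0.135), 2 (0.102), 4 (0.132), 5 (0.055) or 6 (0.121), without cows 5 and 6 (0.135), with no filter (0.0987), with a filter on 8 bright arrays (0.0586) and after quantile scaling (0.053).

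SLC12A2 encodes NKCC1, the basolateral importer of sodium, potassium and chloride in secretory epithelia, and its probe sets disagreed in call. The brightest gave -1.95 (-4.05 to 0.14, adjusted p = 0.244), and its cows ran from -7.22 to 0.99. The second had values of 6.18, 7.20 and 8.29 in epithelium, against 3.12, 4.23 and 6.09 in stroma. On this probe set the tissues did not overlap, and the difference was -2.60 (SE 0.47), 6.05-fold, with an adjusted p of 0.00998. The second probe set kept its call in each of 15 settings. Both were of similar brightness, with epithelial and stromal means of 6.87 and 4.92 on the brightest and 7.17 and 4.58 on the second. The mean of the probe sets also passed (adjusted p = 0.0448).

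SLC8A1 encodes NCX1, which trades sodium for calcium across the plasma membrane, and it too passed by a probe set other than its brightest. That probe set had values of 1.23, 1.71 and 3.61 in epithelium, against 3.83, 5.68 and 6.37 in stroma. No tissue values overlapped and stroma was higher in all 6 cows, with a difference of 3.32 (SE 0.53, adjusted p = 0.00552). Epithelium was dim, so that the fold of 9.99 is not exact. The other tested probe sets gave 2.48 (adjusted p = 0.165) and 2.07 (adjusted p = 0.212), the mean over all of them passed (adjusted p = 0.0253), and without cows 5 and 6 the call was lost (0.0541). In the group of phosphate, sulfate, magnesium and iodide carriers, none of 4 tested genes passed. Only SLC13A2 had an unadjusted p under 0.05 (0.0324), and 14.6% of all tested genes had one towards epithelium. The phosphate importer SLC20A1 (PiT1) was higher in stroma in 6 of 6 cows, at 8.34 to 9.86 in epithelium and 9.21 to 10.12 in stroma, yet with a difference of 0.50 (-0.26 to 1.26, adjusted p = 0.404). SLC13A2, a sodium-coupled carrier of dicarboxylates such as succinate, was counted in that group and had its largest difference, at -1.38 (adjusted p = 0.165). The other 3 tested genes of the group lay above 0.

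Lactate, pyruvate and ketone bodies cross the plasma membrane with a proton through MCT1, the product of SLC16A1. Its values were 4.99, 6.92 and 8.34 in epithelium, against 3.01, 4.96 and 6.37 in stroma. The ranges of the tissues overlapped widely, but within a cow epithelium was always higher, by -1.77 to -3.0. The difference was -2.21 (SE 0.34), 4.64-fold, with an adjusted p of 0.00442. It was lost only without the cow block (adjusted p = 0.0699). SLC16A13, the other tested monocarboxylate carrier of the 3 on the array, gave 0.37 (adjusted p = 0.541) and was named because the group holds no more.

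Among the 14 tested mitochondrial SLC25 carriers, of 27 on the array, 1 was higher in epithelium. SLC25A29, a carrier of basic amino acids of the inner membrane, had values of 6.00, 7.50 and 7.98 in epithelium, against 4.76, 5.10 and 5.45 in stroma. All epithelial arrays were above all stromal arrays, and the stromal values lay close together. The difference was -2.18 (SE 0.46), 4.53-fold, with an adjusted p of 0.0200, and it was not called without cow 1 (0.0711), 3 (0.0551) or 4 (0.0649). Of the 14, 12 had a difference below 0, where 60% of all tested genes did. Their median was -0.29, beside -0.20 over all tested genes. The 1 call was 7.1% of the 14, and 4.62% of all tested genes were higher in epithelium. When each array was centred, 10 of the 14 lay below 0, with a median of -0.11 beside -0.0096 over all tested probe sets.

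The ADP-ATP carriers and the phosphate carrier, which feed ATP synthesis, gave no call. SLC25A3 differed by -0.28, SLC25A4 by -0.05, SLC25A5 by -0.29 and SLC25A6 by -0.64 (adjusted p of 0.658, 0.961, 0.735 and 0.483). The last 3 are closely related genes, and whether their probes share signal was not tested. These 4 were named after their values were seen. SLC25A20, the carnitine-acylcarnitine carrier, gave -1.85 (-4.67 to 0.98, adjusted p = 0.412) with values of 5.30 to 12.51 in epithelium and 2.11 to 10.98 in stroma. Its second probe set gave -1.39 in the same direction in 6 of 6 cows (adjusted p = 0.088). The citrate carrier SLC25A1, which exports citrate for fatty acid synthesis, was too low to be tested, at -0.23 (adjusted p = 0.616 in the fit of all probe sets).

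**Figure D5:**
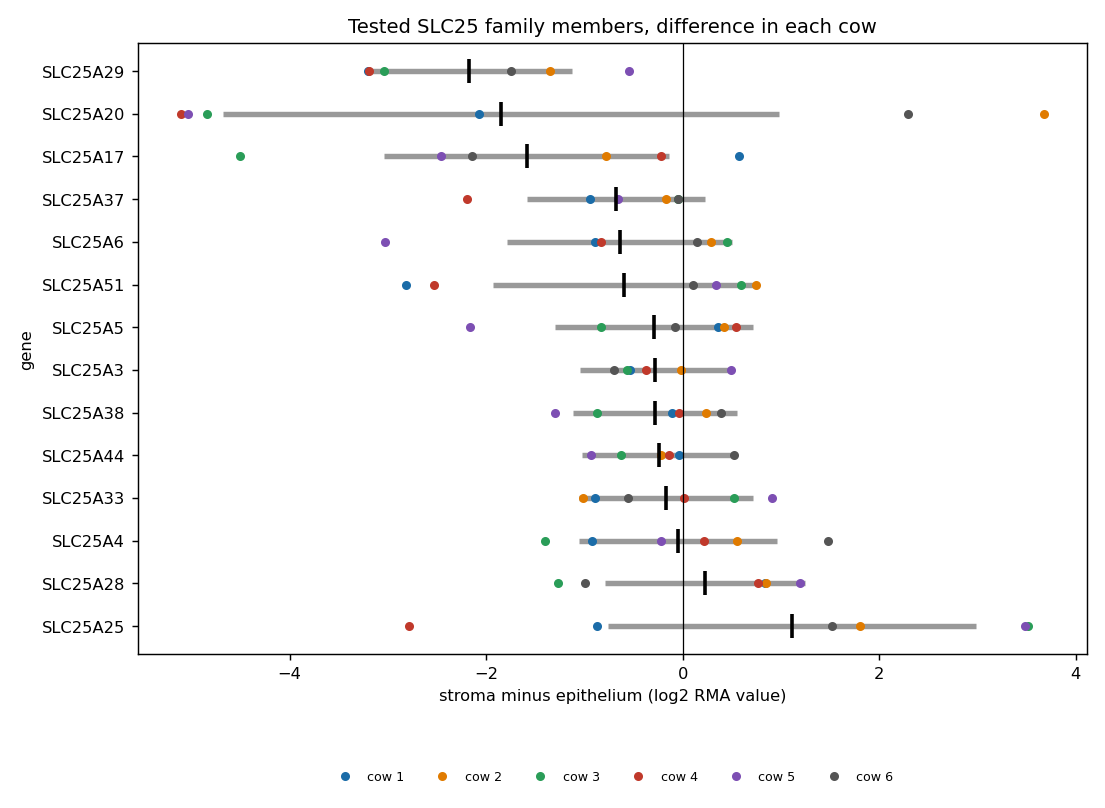
Stroma minus epithelium on the log2 scale (x axis) for the 14 tested SLC25 carriers (y axis), with 1 coloured point per cow, a black tick for the mean and a grey bar for the 95% interval. SLC25A29 lies below 0 in all 6 cows, as does SLC25A37, which did not pass (adjusted p = 0.346). The interval of SLC25A20 is the widest, from -4.67 to 0.98.

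None of the 12 tested carriers of nucleotide sugars and of the Golgi and endoplasmic reticulum passed, of 20 on the array. Their median was -0.83 and 10 lay below 0, where 60% of all tested genes did. Unadjusted, 4 had a p under 0.05 towards epithelium (14.6% of all tested genes). SLC33A1, which brings acetyl-CoA into the endoplasmic reticulum, came closest, at -1.90 (-3.04 to -0.75, adjusted p = 0.0501), with 4.31, 5.61 and 6.41 in epithelium, against 2.16, 3.83 and 4.69 in stroma. It was higher in epithelium in 5 of 6 cows and passed without cow 2 (0.0222) or without the cow block (0.0175). SLC33A1 also passed with cow as a random block and when probe sets were averaged by gene, in 4 of 15 settings in all (adjusted p from 0.0132 to 0.240). SLC35A2, the UDP-galactose carrier of the Golgi, gave -0.72 (-1.74 to 0.30, adjusted p = 0.373). SLC35B2, which carries the sulfate donor PAPS, gave -1.49 (adjusted p = 0.108) and SLC35D2 -1.05 (adjusted p = 0.179), each in the same direction in 6 of 6 cows. Both were named after their values were seen. SLC35A4 gave 0.40 by its brightest probe set and -0.17 by the second.

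In the remaining groups no gene passed, and SLC6A8 was the only gene with an unadjusted p under 0.05 (0.0328). The creatine carrier SLC6A8 differed by -1.31 (adjusted p = 0.166), and the lysosomal peptide and histidine carrier SLC15A4 by -1.31 (adjusted p = 0.410), which became an adjusted p of 0.0299 without cow 3. SLC44A2, a choline carrier-like protein, gave 0.78 (adjusted p = 0.332), SLC5A10, a sodium-coupled sugar carrier, 0.48 (adjusted p = 0.413), and the acyl-CoA ligase SLC27A5, which acts on bile acids, 0.43 (adjusted p = 0.754). Of the 2 genes that only bear a carrier's name, SLC4A1AP gave -0.99 (adjusted p = 0.413).

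The 91 carriers that were not tested comprised 58 that were dim in both tissues and 33 with a tissue mean at or above 2.95. SLC34A2, SLC30A2 and SLC27A6, carriers of phosphate, zinc and fatty acids in the secretory gland, were among the dim ones, and no direction is read from them. The vitamin carrier SLC5A6 gave 0.13 (adjusted p = 0.784) and the taurine carrier SLC6A6 0.50 (adjusted p = 0.766) in the fit of all probe sets. SLC7A8, SLC38A1, SLC30A4, SLC40A1, SLC44A1 and SLC26A2 had no probe set with a single symbol and were not analysed here.

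Genes that act with the carriers were read from lists of their own. Of 18 carrier partners on the array, such as ezrin and basigin, which chaperones MCT1, 13 were tested and none passed. Their median was -0.55 and 11 of 13 lay below 0. Among all tested genes 9.1% passed, the median was -0.20 and 60% lay below 0. Basigin (BSG) gave -0.24 (adjusted p = 0.802) and ezrin (EZR) -1.02 (adjusted p = 0.096). Of 22 genes of the amino acid response and of mTORC1, the kinase complex that senses amino acids, 19 were tested and none passed. Their median was -0.60 and 16 of 19 lay below 0, where 60% of all tested genes did. RRAGD, a GTPase that ties amino acids to mTORC1, gave -1.79 (adjusted p = 0.053), and ATF4, the transcription factor of amino acid shortage, gave -0.44 (adjusted p = 0.564). Unadjusted, 1 of 13 partners and 5 of 19 genes of the second list had p under 0.05 towards epithelium (14.6% of all tested genes).

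The carriers varied more between cows in stroma than in epithelium. The median SD over 6 cows was 0.73 in epithelium and 1.13 in stroma, and the stromal SD was the larger for 59 of 80 carriers, 73.75%, where the same held for 68.3% of all tested genes. Array quality was also uneven. The mean correlation of an array with its own tissue was 0.72 to 0.82 in stroma and 0.84 to 0.88 in epithelium. GAPDH signal at the 3' end exceeded that at the 5' end by 2.31 to 4.75 in stroma and 0.93 to 3.59 in epithelium. The part of array quality in the spread and in the differences was not tested. Within cows, the median difference over the 80 carriers was -0.53, -0.11, -0.28, -0.51, -0.48 and -0.63 in cows 1 to 6, and that over all genes was -0.21, -0.03, -0.10, -0.23, -0.26 and -0.20. The median was below 0 for the carriers in every cow, and nearest to 0 in cow 2. By brightest probe sets, 11 carriers were higher in epithelium in all 6 cows and 3 in stroma (9.59% and 6.99% of genes). In the same order, 4 and 1 showed no overlap between tissues (2.97% and 3.41% of genes).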

How the data were processed

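The deposited values are log2 intensities of 12 Bovine GeneChip arrays, made by the authors with RMA (named in the submitters' processing notes) and quantile normalization over 24 arrays after linear amplification of the captured RNA. Detection calls were not used here. Controls were removed and the probe sets with the highest mean were tested, as many as the study kept by detection calls (down to a mean of 3.57). Differences were fitted with limma 3.58.1 and data.table (version 1.17.8) under R 4.3.3. Tissue was the term tested and cow a fixed block. The study fitted tissue alone, and its fit is an alternative. P-values were adjusted by Benjamini-Hochberg over all tested probe sets, at 0.05. The number of arrays limits the precision. The same replicate number was taken to mark the same cow, since the sample titles give a replicate number and name no animal. Deviations of both tissues correlated at 0.0257 to 0.201 within cows so paired.

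Each gene was read by its brightest tested probe set. Named genes were all that passed, the largest of each group without a call, carriers known in the mammary gland, and probe sets that differed. The members and lists were chosen with earlier results of these data known. Alternatives were no block, a random block, a prior trend, quantile scaling, centring, other filters, the mean of probe sets and leaving out each cow. Leaving out cows 5 and 6 was chosen after seeing the data. Intervals are 95% intervals of the fit. All 240 probe sets matched the reference by gene ID. No genome coordinates or sequences were used.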

Additional observations from a re-analysis of the deposited data

Results flagged for a closer look

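Of 78 sets of 6 arrays (a named carrier in a tissue) that were examined, 6 held an array whose gap to its nearest neighbour was wide for the range of its group, and chance alone gives about 1 in 20. In stroma, SLC11A2 was 6.99 in cow 3, where the others reached at most 3.31. SLC27A5 was 7.36 in the stroma of cow 3, against at most 3.96 in the others. SLC15A4 was 2.94 in the epithelium of cow 3, against at least 6.48. SLC6A8 was 5.30 and SLC31A1 3.99 in the stroma of cow 5, where the other cows were at most 3.24 and at least 5.61. SLC4A1AP was 5.67 in the stroma of cow 2, against at most 3.50. Cow 3 held 3 of the 6 arrays and cow 5 held 2, and both bear on calls given in the report for SLC11A2, SLC15A4 and SLC31A1. The reason was not tested.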

How the results depend on the processing

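The count of 9 carriers in epithelium became 5 with the 5000 brightest probe sets and 5 to 7 with 1 cow left out, which takes in carriers gained there (such as SLC33A1 without cow 2, SLC11A2 and SLC15A4 without cow 3). The stromal count of 1 became 2 when cow was dropped as a block, or entered as a random block, and when probe sets were averaged, 0 without a filter, with the 5000 brightest, with 8 bright arrays, with quantile scaling or without cows 5 and 6, and 0 to 1 with 1 cow left out. By probe set, the epithelial count of 11 became 7 with the 5000 brightest and 6 to 9 with 1 cow left out. The stromal count of 2 became 1 without a filter or with quantile scaling, 0 with the 5000 brightest, with 8 bright arrays or without cows 5 and 6, and 1 to 2 with 1 cow left out. The median over carrier probe sets was 0.073 without a filter, -0.68 with the 5000 brightest, and -0.58 to -0.38 with 1 cow left out. Without the cow block 10 probe sets were called in epithelium and 3 in stroma, 9 of them shared with the 13 of the blocked fit. With cow as a random block 17 probe sets passed in either direction, 12 of them shared with those 13. For mTORC1 genes the count in epithelium was 1 in place of 0 when cow was dropped or made random, or with a prior trend, and 0 to 1 with 1 cow left out. For carrier partners it was 1 with a random block or a prior trend. Differences near 0 turned sign. With 1 cow left out, SLC7A5 ran from -0.17 (cow 5) to 0.60, with -0.061 (cow 1) and -0.00014 (cow 3), SLC3A2 from -0.068 (cow 3) to 0.55, with -0.00071 (cow 6), SLC27A5 from -0.32 (cow 3) to 0.75, SLC35A4 from -0.25 (cow 5) to 0.85, and SLC6A6 from -0.046 (cow 5) to 1.19. SLC7A5 was -0.25 without cows 5 and 6, and SLC38A2 was -0.22 as the mean of probe sets. The cause was not tested, beyond fewer arrays or probe sets in the fit. By their brightest probe set, SLC28A3, SLC22A5 and SLC1A1 kept their call in every setting in which they were fitted. Values under the array medians and 6 pairs limit what could be called. No share of all tested genes was counted under these settings, so the counts cannot be set against other genes.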

Other observations

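Among carriers below the tested range, a few had a similar order in all cows. SLC44A4, a choline carrier-like protein of epithelia chosen after its values were seen, was 2.53 to 5.49 in epithelium and 1.90 to 2.46 in stroma, with no overlap, and its difference was -1.60 (adjusted p = 0.0893 in the fit of all probe sets). SLC9A5, a sodium-proton exchanger also chosen after its values were seen, gave 1.08 towards stroma (adjusted p = 0.0693). Neither passed.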
